A study of Mus musculus with 24 samples.

Results

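Ribosome biogenesis factors are the proteins that make a ribosome without staying in it, and the mRNAs of 59 of them were followed here through sucrose gradients of mouse erythroblasts. The members were taken by gene symbol, and 58 of the 59 were measured among 11035 genes tested. They comprise 3 box C/D proteins, 4 box H/ACA proteins, 6 nucleolar or rDNA factors, 24 small-subunit factors and 21 of 22 large-subunit factors. The large-subunit factor Mrto4 has only a probe set that it shares with other symbols, so it was not used. Where a gene had several probe sets, the brightest over the 24 arrays stood for it.

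Immortalized erythroblasts, the precursors of red cells, were grown without serum on Epo, SCF and Dex. They were left untransduced or received a lentivirus carrying a control construct or an shRNA against Rps19 or against Rpl11, and were frozen after cycloheximide treatment. The treatment text places harvest 3 days after delivery and does not say how untransduced cells were timed. The control construct is called ev in the sample titles and sc in the shRNA tag, and its sequence is not stated. The labels name no shRNA sequence and 1 immortalized line, so the 3 gradients per group, called biological replicates, are cultures of that line. Each gradient gave a polysomal pool and a subpolysomal pool of all other fractions, each on its own Affymetrix array.

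Ribosomal RNA is transcribed in the nucleolus, and the precursor is modified there by small nucleolar ribonucleoproteins. Box C/D particles guide methylation of ribose, and box H/ACA particles guide the formation of pseudouridine. The precursor is then cut, folded and exported along separate small-subunit and large-subunit routes. Red cell precursors need many ribosomes during their expansion, and inherited defects of ribosomal proteins such as Rps19 and Rpl11 cause Diamond-Blackfan anaemia.

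Recruitment is the log2 ratio of polysomal to subpolysomal signal in 1 gradient, and level is the mean of the same log2 signals. A member counts as higher or lower where limma's adjusted p over all 11035 genes was under 0.05. Arrays are scaled to a common mean, so recruitment of 0 means the same share of signal on both arrays and not equal numbers of molecules. The sign of a single recruitment value therefore depends on the scaling: with arrays centred on their medians, the median of all genes in untransduced cells moved from −0.09 to 0.72. For this reason member values are set beside those of all genes. In a bulk pool, fewer mRNAs per cell and fewer cells holding the mRNA cannot be told apart.

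Each targeted mRNA was lower in level with its shRNA than with the control construct. Rps19 fell by 1.53 (2.88-fold, SE 0.16, n = 3 per group, limma adjusted p = 0.00369) with its shRNA, and Rpl11 fell by 2.66 (6.32-fold, SE 0.25, adjusted p = 0.0011) with its own. Of 12 erythroid markers 9 passed the filter on low signals, among them Gata1 and Klf1, while Hba-a1, an adult globin, lay at 4.03 to 126 signal units. Of 6 lymphoid markers, 5 of them with a probe set, none passed, and summed lymphoid signals ran from 64.9 to 724. Macrophage markers passed in 3 of 5 (summed signals of 384 to 1154), granulocyte markers in 2 of 6 (124 to 640), and megakaryocyte or mast cell markers in 4 of 6 (2057 to 6588). Pf4, a platelet chemokine, reached 5645 signal units. The Rpl11 arrays stand apart: for Gapdh, the log2 signal of the 3' control probe set less that of the 5' one, a measure that rises when RNA or its labelling is cut short, ran from −0.46 to 3.89 on these 6 arrays and from −0.42 to 0.42 on the other 18. Its part in the Rpl11 results below was not tested.

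In untransduced cells biogenesis mRNAs sat low on polysomes as a set, with a wide spread between members. Their median recruitment was −0.33, against −0.09 for all genes, and 42 of 58 lay below the median of all genes. Past the threshold, 25 members were lower and 5 were higher, where 21.4% and 19.5% of all genes did the same and 40.9% passed in either direction. All 3 gradients lay below 0 in 36 members and above 0 in 8, where 36.6% and 30.2% of all genes did so. The extremes were Nop56 at −2.54 and Nop16 at 1.02. Across all 4 groups, 14 members stayed below the median of all genes in 12 of 12 gradients and 6 stayed above it, against 10.6% and 15.7% of all genes. With arrays centred on their medians 30 members were higher and 3 lower, and 7164 of all genes passed in either direction. The gap between the medians of members and all genes remained −0.24 there. Without the filter on low signals that gap was −0.04.

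**Figure D1:**
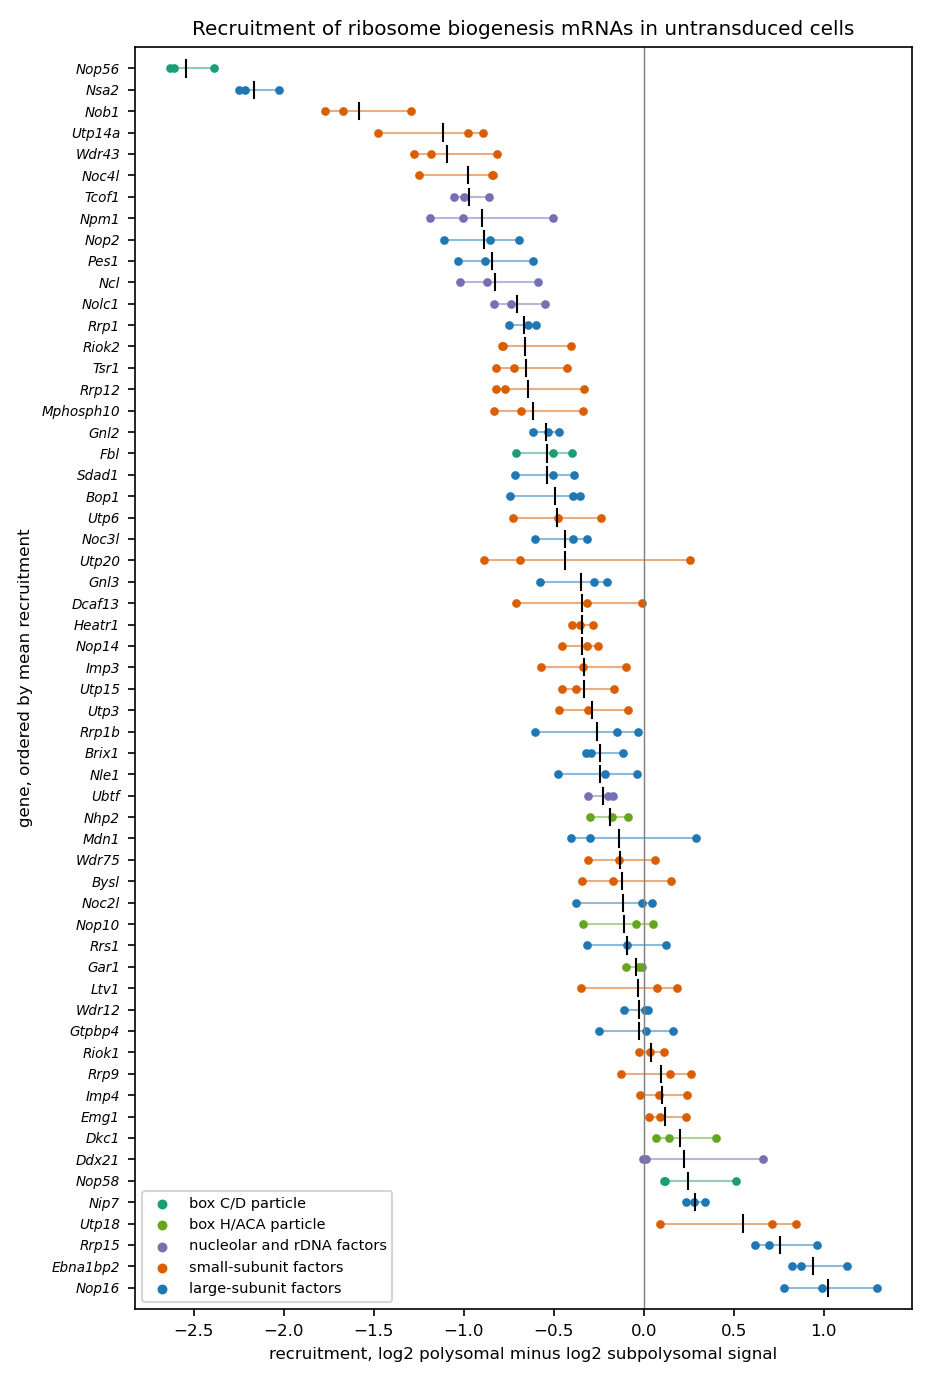
Recruitment (log2 polysomal minus log2 subpolysomal signal) of the 58 measured members in untransduced cells. Points are the 3 gradients, the black tick is their mean, and colours give the role. Nop56 and Nsa2 lie below −2 in every gradient, and Nop16, Ebna1bp2 and Rrp15 lie above 0.6.

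The box C/D proteins ranged from the lowest member of the set to values above 0, short of its high end. Nop56 and Nop58 are paralogous core proteins of the same particle, and Fbl, fibrillarin, is its methyltransferase. Nop56 gave polysomal signals of 2432, 2408 and 2403 and subpolysomal signals of 15128, 14720 and 12616 in replicates 1, 2 and 3 of untransduced cells. Every subpolysomal value was at least 5 times its polysomal partner, and recruitment was −2.54 ± 0.13 (SD, n = 3, limma adjusted p = 6.7e-07). The second Nop56 probe set read −2.32 ± 0.24. Nop58 had recruitment values of 0.51, 0.12 and 0.11, all above 0, but its mean of 0.25 (SE 0.11) missed the threshold in untransduced cells (adjusted p = 0.0961). Over 12 gradients Nop56 was always below 0, from −2.69 to −1.71, and Nop58 always above 0, from 0.11 to 0.62. Fbl lay between them at −0.40, −0.71 and −0.51, and was lower (−0.54, SE 0.11, adjusted p = 0.00342).

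None of the 4 box H/ACA proteins was past the threshold in untransduced cells by limma, nor at an unadjusted p under 0.05. Nhp2 and Nop10, small core proteins, stood at −0.19 (SE 0.09, adjusted p = 0.129) and −0.11 (SE 0.10, adjusted p = 0.398). Gar1, which helps in substrate release, stood at −0.05 (SE 0.09). Dkc1, the pseudouridine synthase mutated in dyskeratosis congenita, stood at 0.20 (SE 0.22, adjusted p = 0.487). In the probe sets used, their median recruitment of −0.08 was close to the −0.09 of all genes. Other probe sets past the filter read 0.69 ± 0.16 for Nop10, 0.10 ± 0.06 for Nhp2, and −0.57 ± 0.14 and 0.22 ± 0.16 for Dkc1. All but the last were opposite in sign to the one used.

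Of the 6 nucleolar and rDNA factors 4 were lower and none higher. Npm1, nucleophosmin, had values of −1.19, −1.01 and −0.50, and Ncl, nucleolin, had −1.02, −0.87 and −0.59. All these values were negative, with means of −0.90 (SE 0.16, adjusted p = 0.00137) and −0.83 (SE 0.12, adjusted p = 0.000499). Npm1 is one of 2 members, with Nop10, whose signal averaged at least 0.4 of the highest on the array, where signals can flatten. With quantile normalization over all arrays, added after seeing the data, Npm1 turned to 0.25. Tcof1, treacle, mutated in Treacher Collins syndrome, was the lowest of this group at −0.97 ± 0.10 (adjusted p = 0.00237). Nolc1, a chaperone of small nucleolar particles, stood at −0.71 ± 0.15 (adjusted p = 0.0018), and its other probe sets read 0.14 ± 0.09 and −1.58 ± 0.10. Ubtf, the RNA polymerase I transcription factor, and Ddx21, an RNA helicase of the nucleolus, had −0.23 (SE 0.14, adjusted p = 0.211) and 0.22 (SE 0.17, adjusted p = 0.313).

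Among the small-subunit factors 10 of 24 were lower and 1 was higher. Nob1, the endonuclease that makes the final cut of small-subunit rRNA, was the lowest, with −1.77, −1.67 and −1.30. Its polysomal signals of 919 to 1039 lay below its subpolysomal signals of 2483 to 3325 without overlap, and mean recruitment was −1.58 (SE 0.14, adjusted p = 3.19e-05). Utp14a and Wdr43, components of the early processome, followed at −1.12 (SE 0.13, adjusted p = 0.000175) and −1.09 (SE 0.11, adjusted p = 7.94e-05). Noc4l, whose yeast homolog works in early small-subunit assembly, stood at −0.98 (SE 0.13, adjusted p = 0.000348). The second Wdr43 probe set, which passed the filter, read 0.18 ± 0.06, opposite in sign to the brighter one. The other lower members were Riok2, an atypical kinase of late particles, Tsr1, Rrp12, Mphosph10, Utp6 and Heatr1, from −0.66 to −0.34. Other Riok2 probe sets past the filter read −0.42 ± 0.07 and 0.21 ± 0.12. Utp18 was the only higher one, at 0.55 (SE 0.15, adjusted p = 0.0154), with gradients of 0.71, 0.84 and 0.09 that spread widely. Leaving out 1 gradient gave 0.40 to 0.78, and the call was lost without replicate 1 or 2 (adjusted p up to 0.122).

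Large-subunit factors held both the low and the high end. Nsa2, needed in yeast for late nuclear large-subunit particles, had recruitment of −2.22, −2.03 and −2.25 (mean −2.16, SE 0.17, adjusted p = 1.53e-05). Its gradients stayed close together although its level in replicate 3 (12.54) was lower than in replicates 1 and 2 (13.76 and 13.81). A second, dimmer Nsa2 probe set past the filter read −0.89 ± 0.13, so a value below −2 rests on the brighter one. Of the other 8 lower members, Nop2, an rRNA methyltransferase, Pes1, the pescadillo protein, and Rrp1 stood at −0.89 (SE 0.16), −0.84 (SE 0.15) and −0.67 (SE 0.09), and Gnl2, Sdad1, Bop1, Noc3l and Gnl3 lay between −0.54 and −0.35. With arrays centred on their medians Rrp1 turned to 0.15. The second Noc3l probe set read 0.39 ± 0.16, opposite in sign to the brighter one.

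The 4 higher large-subunit members were Nop16, Ebna1bp2, Rrp15 and Nip7, which act in nucleolar large-subunit assembly in yeast or human cells. Nop16 had values of 1.29, 0.78 and 0.99 (mean 1.02, SE 0.12, adjusted p = 0.000185), and Ebna1bp2 had 1.13, 0.87 and 0.82 (mean 0.94, SE 0.11, adjusted p = 0.000167). Rrp15 had 0.96, 0.62 and 0.70 (mean 0.76, SE 0.13, adjusted p = 0.00117), and Nip7 had a mean of 0.29 (SE 0.09, adjusted p = 0.0326). The Nip7 call was lost on leaving out any of replicates 1, 2 and 3 (0.26 to 0.31, adjusted p from 0.0678 to 0.133) and held in 4 of 11 alternatives. All 12 of these gradient values were positive. The second Ebna1bp2 probe set read −1.04 ± 0.23, and the mean of its probe sets was −0.050, so its direction rests on the brighter probe set. A second, dimmer Nop16 probe set read 0.28 ± 0.47, and that of Nip7 read −0.18 ± 0.19, opposite in sign to the one used.

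The starts of the mRNAs at the ends of this order are shown because ribosomal protein mRNAs, whose medians here were −1.60 (small subunit) and −1.49 (large subunit) over the 3 untransduced gradients, are known for a pyrimidine tract at the first base. The sequences are from RefSeq on GRCm38.p6, 30 bases before and 20 from the annotated start on, with the first 5 transcribed bases in capitals. The first set of 3 has low recruitment:
Nop56 (chr2:130274382-130274431, + strand): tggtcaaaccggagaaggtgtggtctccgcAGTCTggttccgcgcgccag
Nsa2 (chr13:97137907-97137956, − strand): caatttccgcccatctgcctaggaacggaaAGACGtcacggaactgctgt
Nob1 (chr8:107425019-107425068, − strand): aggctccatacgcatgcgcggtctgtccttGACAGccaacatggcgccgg
The other set has high recruitment:
Rrp15 (chr1:186749339-186749388, − strand): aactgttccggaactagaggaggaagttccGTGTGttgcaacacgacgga
Ebna1bp2 (chr4:118620769-118620818, + strand): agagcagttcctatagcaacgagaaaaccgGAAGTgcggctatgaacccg
Nop16 (chr13:54590055-54590104, − strand): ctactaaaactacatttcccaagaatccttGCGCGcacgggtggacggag

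None of these 6 annotated starts is a C followed by at least 4 pyrimidines (C or T). Over the 50 members with a RefSeq promoter entry, 1 (2.0%) had that pattern at the first base, against 3.01% of 27025 genes and 25.5% of 55 ribosomal protein genes. Allowing the run to start within 5 bases of the annotated first base gave 12 of 50 members, 21.2% of all genes and 50.9% of ribosomal protein genes. Annotated starts can lie some bases from the start used in these cells, and no start was measured here.

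The letters CACGTG, the E-box read by Myc and related factors, were searched anywhere in the 300 bases around the start (250 before and 50 after). They occurred in 11 of 50 members (22.0%) and in 8.09% of all genes, with 6 of 21 small-subunit and 5 of 19 large-subunit factors. The motif reads the same on both strands. The windows below, with the E-box in capitals, are those of the members with the lowest untransduced recruitment among the 11, and are shown as examples of its place near the start:
Wdr43 (chr17:71616212-71616244, + strand): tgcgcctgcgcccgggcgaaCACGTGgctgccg
Nop2 (chr6:125131803-125131848, + strand): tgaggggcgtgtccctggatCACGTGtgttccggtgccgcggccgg
Pes1 (chr11:3963957-3964002, + strand): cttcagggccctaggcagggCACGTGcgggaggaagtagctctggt
Its first base lies at position 18 of the transcript in Wdr43, at 3 in Pes1 and 60 bases before the start in Nop2. The Wdr43 stretch is printed only up to base 30 of the transcript. The match is a description of letters and not a measured binding site.

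With the control construct 5 members were higher and 21 lower (36.7% of all genes past the threshold, 17.8% higher and 18.9% lower, member median −0.28). With the Rps19 shRNA 5 were higher and 17 lower (36.6% of all genes, 17.6% and 19%, member median −0.16), and with the Rpl11 shRNA 7 were higher and 16 lower (28.6% of all genes, 14.1% and 14.5%, member median −0.09). All-gene medians in these 3 groups were −0.08, −0.08 and −0.04. Without the filter on low signals the members' median less that of all genes turned from −0.08 to 0.09 with the Rps19 shRNA and from −0.05 to 0.09 with the Rpl11 shRNA. In the same order, all 3 gradients lay below 0 in 37, 29 and 19 members and in 35.9%, 36.3% and 29.9% of all genes. They lay above 0 in 7, 12 and 12 members, and in 29.9%, 29.6% and 25.4% of all genes. Members that were lower in 4 of 4 groups numbered 9 (6.23% of all genes): Nop56, Nsa2, Nob1, Utp14a, Nop2, Nolc1, Rrp12, Sdad1 and Gnl3. Those higher in 4 of 4 groups were Nop16, Ebna1bp2 and Rrp15 (7.13% of all genes). Leaving out Rpl11 replicate 2 or 3 took the 23 members of the Rpl11 group to 15 or 13.

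Small-subunit and large-subunit factors were compared by the difference of their median recruitment within each gradient. In untransduced cells small-subunit factors were lower than large-subunit factors by −0.13, −0.03 and −0.15 in replicates 1, 2 and 3, a mean of −0.10 ± 0.07 (SD, n = 3). With the control construct the differences were −0.08, −0.08 and −0.17 (mean −0.11 ± 0.05). All 6 values were negative, but each was small beside the spread of members, which ran from −1.58 to 0.55 in the small-subunit and from −2.16 to 1.02 in the large-subunit list. Other factors of the pathway, counted below, went the other way. In untransduced replicates 1, 2 and 3 the median of 32 other small-subunit factors was −0.11, −0.18 and −0.09. That of 38 other large-subunit factors was −0.47, −0.41 and −0.24. With the control construct these medians were −0.23, −0.14 and −0.08 against −0.46, −0.36 and −0.30. The direction thus depends on the factors listed.

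With the Rps19 shRNA the difference was −0.11, −0.01 and 0.00 (mean −0.04 ± 0.07). With the Rpl11 shRNA it was 0.07, −0.13 and 0.05 (mean −0.00 ± 0.11), with replicate 2 on the other side of 0 from replicates 1 and 3. The values of each shRNA group overlapped those of the control construct. Quantile normalization over all arrays, added after seeing the data, took the untransduced difference to −0.018 and the control difference to −0.049, so it rests in part on the scaling.

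**Figure D2:**
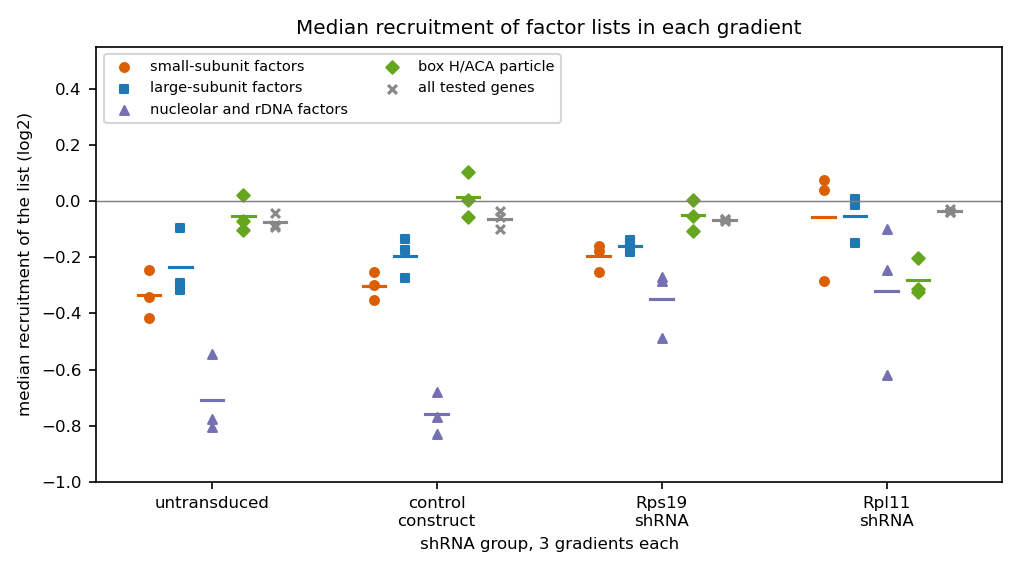
Median recruitment (log2) of the small-subunit, large-subunit, nucleolar and box H/ACA factors and of all tested genes in each of the 12 gradients, by group. Symbols are gradients and bars their means. Nucleolar factors lie lowest in untransduced and control cells, at −0.71 and −0.76 on average, and small- and large-subunit symbols lie close together in every group.

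The first shRNA question is whether loss of Rps19 moved these mRNAs onto or off polysomes. No member passed in recruitment between the Rps19 shRNA and the control construct, where 0.87% of all genes did (0.29% higher, 0.58% lower), and 9 members were higher and 1 lower at an unadjusted p under 0.05 in limma, as were 7.15% and 7.78% of all genes. The median difference of members was 0.14, against 0.01 for all genes, and 46 of 58 differences were positive, against 51.1% of all genes. Other small-subunit and large-subunit factors of the pathway, counted below, had medians of 0.12 and 0.18, and exosome genes 0.002. Median recruitment of small- and large-subunit ribosomal proteins went from −1.28 and −1.17 with the control construct to −0.89 and −0.78. The rise is thus not particular to the members. In the 3 Rps19 gradients the median difference of members from the control mean was 0.15, 0.17 and 0.16, and the 3 control gradients ran from −0.03 to 0.01.

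Nop56 had the smallest p. Its recruitment was −2.58, −2.69 and −2.43 with the control construct and −1.71, −2.10 and −1.97 with the Rps19 shRNA. The groups did not overlap (0.64, SE 0.14), but the adjusted p was 0.0726. The second Nop56 probe set differed by 0.23. Npm1 stood at −1.03, −0.69 and −0.91 against −0.14, 0.11 and 0.26, again without overlap (0.95, SE 0.22, adjusted p = 0.0793). Nob1 and Nsa2 differed by 0.71 each (SE 0.20 and 0.23, adjusted p = 0.128 and 0.179), and Rrp1 by 0.38 (SE 0.13, adjusted p = 0.181). All 5 of these had negative recruitment in control cells and values nearer 0 with the shRNA. Values of the 2 groups did not overlap in 19 members in the upward and 1 in the downward direction, where 12.7% and 12.2% of all genes did so.

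With the Rpl11 shRNA 4 members passed against the same control construct, where 5.67% of all genes did (2.11% higher, 3.56% lower). The recruitment of Fbl, Rrp1 and Noc4l rose, 1 each of the box C/D, large-subunit and small-subunit factors, and that of the box H/ACA protein Nop10 fell. The median difference was 0.23, against 0.02 for all genes, and 47 of 58 differences were positive, against 52% of all genes. Other small-subunit and large-subunit factors of the pathway had medians of 0.11 and 0.28. At an unadjusted p under 0.05, 18 members were higher and 3 lower, and 10.6% and 11.5% of all genes. The groups did not overlap in 20 members upward and 3 downward, where 12.9% and 13.6% of all genes did so.

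Fbl recruitment was −0.89, −0.54 and −0.79 with the control construct and 0.12, 0.15 and 0.26 with the Rpl11 shRNA. All control values were negative and all Rpl11 values positive, so the groups did not overlap (0.92, SE 0.16, limma adjusted p = 0.0121). Rrp1, a nucleolar large-subunit factor, went from −0.93, −0.74 and −0.71 to 0.20, 0.04 and 0.07 (0.90, SE 0.13, adjusted p = 0.0087). Its groups lay on opposite sides of 0 as well. Noc4l went from −1.39, −0.88 and −0.95 to −0.11, 0.01 and −0.18 (0.98, SE 0.19, adjusted p = 0.0168). All 3 Rpl11 values lay above every control value.

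Nop10 went the other way, from 0.25, 0.40 and 0.11 to −0.61, −0.52 and −0.70 (−0.86, SE 0.14, adjusted p = 0.0105). Its polysomal signals were 28399, 28227 and 27269 in control cells and 19113, 18934 and 17170 with the Rpl11 shRNA, while subpolysomal signals ran from 21418 to 25181 and from 27169 to 29208. The Rpl11 gradients were thus lower in the polysomal and higher in the subpolysomal pool, without overlap in either. Its signal is near the top of the array, and it also stood at 0.36 (SE 0.14, adjusted p = 0.994) between control and untransduced cells.

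Second probe sets of these genes gave differences of the same sign. They were 0.69 for Fbl, 0.81 for Rrp1, 0.72 to 0.90 for the 3 others of Noc4l, and −1.22 for Nop10. The calls depend on the spread borrowed from other groups: with only these groups in the fit none of the 4 passed. In Rpl11 replicate 1 alone, the differences from control were 1.00 for Rrp1, −0.86 for Nop10, 0.86 for Fbl and 0.97 for Noc4l. The Gapdh log2 ratio of that gradient was −0.46 in the subpolysomal pool. In its polysomal pool it was 0.99, above the highest value of the other 18 arrays (0.42). The part of these ratios in the 4 calls was not tested. Without control replicate 1, Fbl and Noc4l missed the threshold (adjusted p = 0.0581 and 0.0694), as they did without Rpl11 replicate 3 (2 members left in each case). The differences of all 4 kept their sign in 15 of 15 alternatives.

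**Figure D3:**
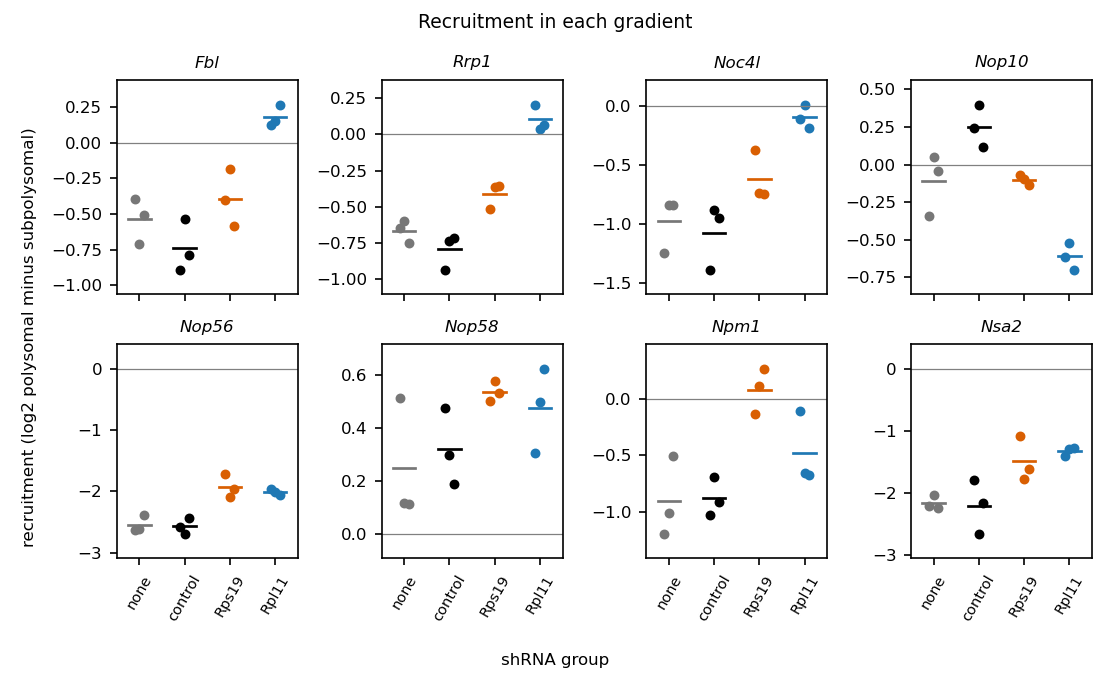
Recruitment (log2) of 8 members in the 12 gradients, by group (none is untransduced). Points are gradients, bars group means, and each panel has its own axis. Fbl, Rrp1 and Noc4l lie highest and Nop10 lowest with the Rpl11 shRNA, and Nop56 and Nsa2 are nearer 0 with either shRNA than with the control construct.

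Members next in order did not pass with the Rpl11 shRNA. Nop56 differed by 0.56 (SE 0.14, adjusted p = 0.0506), Emg1, an rRNA methyltransferase, by −0.48 (SE 0.12, adjusted p = 0.0514), and Nsa2 by 0.88 (SE 0.23, adjusted p = 0.0522). In the Rpl11 gradients the median difference of members from the control mean was 0.39, 0.11 and 0.24, a wider spread than in the Rps19 gradients. The highest was in replicate 1, whose Gapdh log2 ratios were 0.99 (polysomal) and −0.46 (subpolysomal), those of replicate 2, which had the lowest median difference, were 1.23 and 2.1, and those of replicate 3 were 3.29 and 3.89. Both shRNAs were compared with the same 3 control gradients, so their differences are not independent of each other.

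Between the shRNAs no member passed in recruitment (0.553% of all genes did, 0.118% higher and 0.435% lower), with 6 higher and 4 lower at an unadjusted p under 0.05 in limma, as were 7.1% and 8.58% of all genes. The groups did not overlap in 9 members upward and 4 downward, and in 10.1% and 11.1% of all genes. The smallest p values were those of Rrp1 (0.52, SE 0.13, adjusted p = 0.1003), Fbl (0.57, SE 0.16, adjusted p = 0.129) and Nop10 (−0.51, SE 0.14, adjusted p = 0.131). Emg1 stood at −0.39 (SE 0.12, adjusted p = 0.172) and Noc4l at 0.53 (SE 0.19, adjusted p = 0.21). Rrp1 recruitment with the Rps19 shRNA was −0.51, −0.36 and −0.36, between the control and the Rpl11 values. It was thus not shown that the 4 members called with the Rpl11 shRNA responded differently to the Rps19 shRNA.

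Control construct and untransduced cells did not separate. No member and no gene passed in recruitment (0% of all genes) or in level (0%), by limma. At an unadjusted p under 0.05, 1 member was higher in recruitment and none in level, with 304 genes higher and 193 lower in recruitment and 115 and 145 in level over all genes. Nop10, Riok2, Utp18, Nop2 and Heatr1 had the smallest p in recruitment, with differences of 0.36, 0.33, −0.38, 0.37 and 0.22 and an adjusted p of 0.994. Groups did not overlap in 2 members upward and none downward in recruitment (4.98% and 4.92% of all genes), and in 1 and 2 members in level (3.3% and 4.18%). In level the differences of Ddx21, Utp15, Gtpbp4, Utp6 and Nle1 ran from −0.22 to 0.29.

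The level of members was compared next, as the mean of both pools. With the Rps19 shRNA no member passed, where 0.807% of all genes did (0.335% higher, 0.471% lower), and 9 were higher and 5 lower at an unadjusted p under 0.05 in limma, as were 8.01% and 7.23% of all genes. With the replicate number as a block, since same-numbered control and Rps19 gradients deviate together in level, 17 genes in place of 89 and again no member passed. The median difference was 0.10, against 0.01 for all genes, and groups did not overlap in 23 members upward and 5 downward (14.3% and 12.1% of all genes). The large-subunit factor Noc2l had 10.07, 9.75 and 9.42 with the control construct and 10.63, 10.43 and 10.56 with the Rps19 shRNA. The groups did not overlap (0.79, SE 0.24, adjusted p = 0.152). Dcaf13, Wdr75 and Wdr43, small-subunit processome factors, differed by 0.51, 0.54 and 0.36 and Utp14a by −0.67 (adjusted p from 0.165 to 0.191).

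With the Rpl11 shRNA the level of 6 members rose and that of 3 fell (20.2% of all genes past the threshold, 8.73% higher and 11.5% lower), and the median was 0.00, against −0.08 for all genes. Groups did not overlap in 11 members upward and 8 downward (15.9% and 20.5% of all genes). Small-subunit factors made up 4 of the 6. Wdr75 had levels of 10.20, 10.16 and 10.46 with the control construct and 11.41, 11.64 and 11.38 with the Rpl11 shRNA. All Rpl11 values were above all others of the study (1.20, 2.3-fold, SE 0.17, adjusted p = 0.00227). Its signals rose in both pools, from 869 to 1530 and 1245 to 1571 in control cells to 2410 to 3055 (polysomal) and 2414 to 3685 (subpolysomal). A second, dim Wdr75 probe set read −0.80.

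Dcaf13 rose from 11.03, 10.90 and 10.91 to 11.61, 12.15 and 11.94 (0.95, SE 0.16, adjusted p = 0.00394), and Nop14, another processome factor, from 9.30, 9.39 and 9.35 to 10.08, 10.13 and 9.90 (0.69, SE 0.13, adjusted p = 0.0061). Neither gene overlapped between these groups. The Rps19 gradients, at 11.30 to 11.65 and at 9.55 to 9.80, lay above the control values, and for Dcaf13 the highest of them exceeded the lowest Rpl11 value. Ltv1, which leaves the small subunit late in the cytoplasm, rose by 0.55 (SE 0.16, adjusted p = 0.03), Dkc1 by 0.76 (SE 0.22, adjusted p = 0.0336) and Nip7 by 0.41 (SE 0.13, adjusted p = 0.0436). Dkc1 levels were 12.32, 12.95 and 13.15 with the Rpl11 shRNA, and replicate 1 lay just above the control range of 11.82 to 12.24. Its other probe sets read 0.13 and 0.38, and the mean of the Nip7 probe sets was −0.010.

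The members that fell were Ubtf, Mdn1 and Imp3. Ubtf had levels of 10.50, 10.47 and 10.54 with the control construct and 10.14, 9.67 and 8.87 with the Rpl11 shRNA. All 3 were below every control value, but they spread over more than 1 unit (−0.94, SE 0.25, adjusted p = 0.0243), and its second probe set read −2.99. Mdn1, the large ATPase that strips factors from large-subunit particles, fell from 8.72, 8.47 and 8.55 to 8.02, 7.87 and 7.58 (−0.76, SE 0.17, adjusted p = 0.0133), and Imp3, a processome protein, from 12.86, 12.64 and 12.81 to 12.25, 12.27 and 11.60 (−0.73, SE 0.21, adjusted p = 0.0309). Replicate 3, with the highest Gapdh ratios, was the lowest of the Rpl11 gradients in all 3 genes. Among members that rose, it was the lowest for Wdr75 and Nop14 and the highest for Dkc1. The part of the ratios in these levels was not tested.

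**Figure D4:**
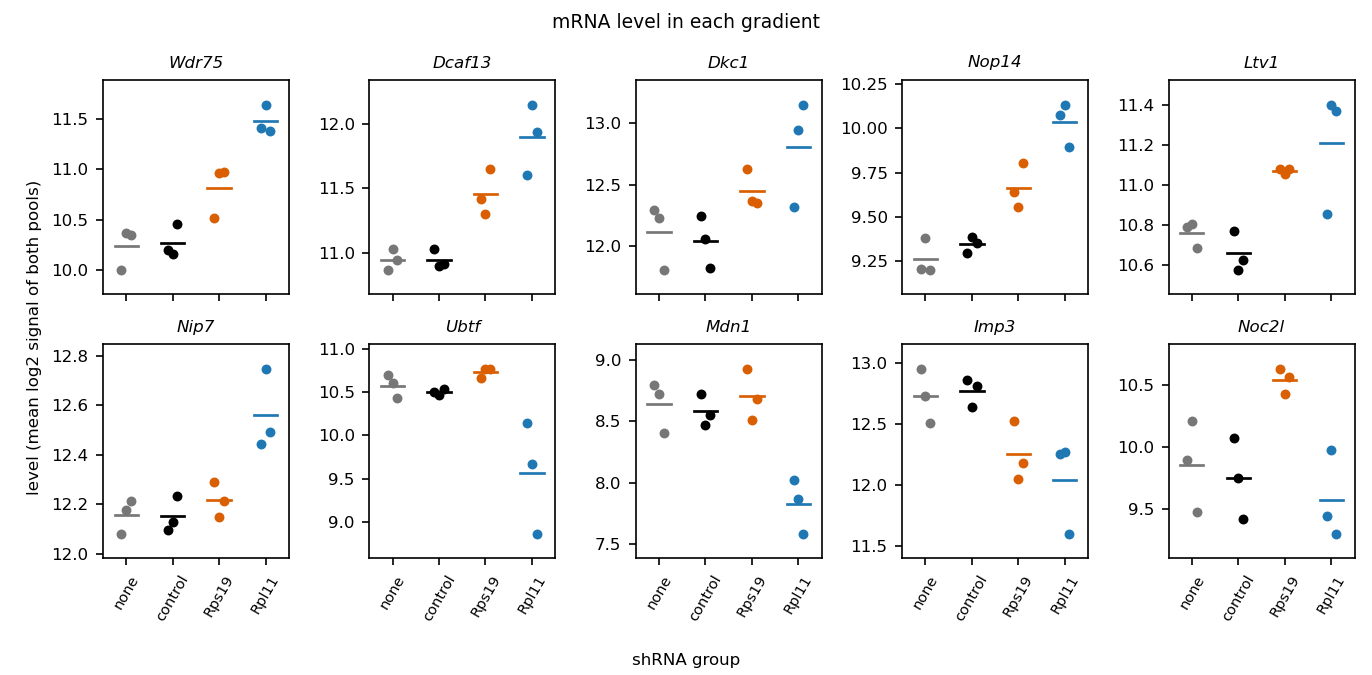
Level (mean log2 signal of both pools) of 10 members in the 12 gradients, by group (none is untransduced). Points are gradients, bars group means, and each panel has its own axis, which does not start at 0. By group mean, Wdr75, Dcaf13 and Nop14 lie highest and Ubtf and Mdn1 lowest with the Rpl11 shRNA.

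These counts move with single gradients. The 9 became 17 without Rpl11 replicate 1, 5 without Rpl11 replicate 2 or 3, and 4 without control replicate 2 or 3, and 2 (Wdr75 and Dcaf13) with only these groups in the fit. Wdr75, Dcaf13 and Nop14 passed in 14 of 15 alternatives each, and the other 6 in 3 to 10. With arrays centred on their medians, which moved all genes to a median of 0.32, 20 members were higher and none lower, so Ubtf, Mdn1 and Imp3 did not pass there. Over all genes 3667 passed in either direction with centring, against 2231 without it, so the gain was not particular to members.

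Against the Rps19 shRNA, 3 members were higher and 8 lower with the Rpl11 shRNA in level (20.5% of all genes, 8.6% higher and 11.9% lower). Groups did not overlap in 7 members upward and 13 downward (15.7% and 21.7% of all genes). Wdr75 was higher here too (0.66, SE 0.17, adjusted p = 0.0215), with Ddx21 (0.68, SE 0.17, adjusted p = 0.0201) and Pes1 (0.65, SE 0.21, adjusted p = 0.0473). Second probe sets opposite in sign were those of Wdr75 (−0.50, dim), Ddx21 (−0.27) and Utp15, named next (0.08). Other probe sets past the filter of Pes1, Ubtf, Noc2l and Rrp1b kept the sign of the one used. Ubtf (−1.17, SE 0.25, adjusted p = 0.00967) and Mdn1 (−0.88, SE 0.17, adjusted p = 0.00637) were lower again, and Noc2l was lower as well (−0.96, SE 0.24, adjusted p = 0.0171). Noc2l levels with the Rpl11 shRNA were 9.45, 9.98 and 9.30, overlapping the control construct and below all 3 Rps19 values. Nle1, which docks Mdn1 on large-subunit particles in yeast, Rrp1b, Utp15, Nop58 and Nob1 were lower too, with differences from −0.89 to −0.54. The 11 became 21, 4 and 6 without Rpl11 replicate 1, 2 and 3, became 5, 7 and 5 without Rps19 replicate 1, 2 and 3, and became 2 (Mdn1 and Noc2l) with only these groups. Centring gave 16 higher and 2 lower, with all genes at a median of 0.25 and 3228 of them past the threshold in either direction.

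Rrp9, which binds the RNA that guides early processing, gave the single most divergent value. With the Rpl11 shRNA its subpolysomal signals were 2074, 744 and 38.4 and its polysomal signals 1288, 813 and 328, so recruitment was −0.68, 0.13 and 2.86. Replicate 3 differs from every other gradient of the study, where Rrp9 recruitment lay between −0.68 and 0.50, and no recruitment call was made for it.

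Other genes of the pathway followed the members in part. Of 32 other small-subunit factors 8 were higher and 9 lower in untransduced recruitment (median −0.25), of 38 other large-subunit factors 1 was higher and 18 lower (median −0.39), and of 13 exosome genes, which trim rRNA, 4 were higher and 1 lower (median 0.13). Over all genes 19.5% were higher and 21.4% lower there. The low end held the large-subunit factors Nop53 (−1.31, SE 0.13, adjusted p = 6.2e-05) and Ppan (−1.29, SE 0.13, adjusted p = 6.2e-05) and the helicase Ddx49 (−1.45, SE 0.17, adjusted p = 0.000167), and the exosome subunit Exosc3 was higher (0.93, SE 0.13, adjusted p = 0.000359). In recruitment none of these genes passed with the Rps19 shRNA against control. At an unadjusted p under 0.05 in limma, 4 other small-subunit genes were higher and 1 lower, as were 4 and 1 other large-subunit genes, and no exosome gene was either, beside the 7.15% and 7.78% of all genes.

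Ddx49, of the other small-subunit list, rose in recruitment with the Rpl11 shRNA (1.25, SE 0.24, adjusted p = 0.0179) while Tsr2, a chaperone of a small-subunit protein in yeast, fell (−0.56, SE 0.12, adjusted p = 0.0306), and Pak1ip1 of the large-subunit list rose (0.70, SE 0.17, adjusted p = 0.0413). In level, 8 of 32 other small-subunit factors rose and 1 fell, among them Ngdn (1.11, SE 0.15, adjusted p = 0.00197) and Krr1 (0.82, SE 0.13, adjusted p = 0.00379), which rose. Of the 38 other large-subunit factors 9 rose, such as the export adaptor Nmd3 (0.88, SE 0.17, adjusted p = 0.0076), and 3 fell, such as Ppan (−1.27, SE 0.22, adjusted p = 0.00452). Of the 13 exosome genes 3 rose and 1 fell. Over all genes 8.73% were higher and 11.5% lower in this comparison. The Gapdh ratios of the Rpl11 arrays given above touch these values too.

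Probe sets of the same gene did not always go together. Of the 58 members 16 have 1 probe set, and the other 42 have 65 more, of which 57 in 40 members passed the filter. In untransduced recruitment 38 of these 57 had the same sign as the probe set used. The values given here are therefore those of the brightest probe set, unless a second is named.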

How the data were processed

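The 24 arrays are 4 groups of 3 gradients with a polysomal and a subpolysomal pool each. The authors deposited linear intensity signals of 45101 probe sets. The submitters' processing notes name MAS5, without a version. A second deposited table gives the polysomal fraction of each gradient (polysomal over polysomal plus subpolysomal signal), per the file headers, and the same fraction computed here from the pools differed by at most 7.11e-10. Signals carry no read depth, and precision is limited by 3 gradients per group. Array means after trimming 2% at each end lie between 499.8 and 500, so signals were used as deposited. Per the labels, 7 µg of RNA came from each pool, and the description of 1 Rps19 gradient (replicate 3) alone holds the word puro, with no meaning given.

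To each intensity 7.85 was added (0.1 of 78.5, the median) before log2 was taken. Among probe sets 34958 have 1 symbol in the annotation used, 932 have several and 9211 have none. Control probe sets and the dimmer 50% were left out, and the brightest probe set per gene kept. Models used limma 3.58.1 in R 4.3.3 (lmFit, eBayes) with the group as the only factor, on all 12 gradients, with Benjamini-Hochberg adjustment and a threshold of 0.05. The scripts were tested on simulated data.

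The members, the gene lists and the tests were chosen with earlier results of these data known. Named members are, per comparison, up to 10 per direction past the threshold, or the 5 with the smallest p where fewer than 5 passed, with the lowest and highest member of each role and all box C/D and H/ACA proteins. Of the other pathway lists up to 4 per comparison were allowed. Rrp9, Riok2 and others given only within ranges were named after their values were seen, as were the genes drawn. The list median of a gradient is taken over its genes, and no test was made of a list. In recruitment 0 of 18 correlations between same-numbered gradients exceeded 0.1, and replicate numbers were not taken to pair them. In level 7 of 18 did, and in all 3 pairs only between control and Rps19 gradients (0.21 to 0.53), so that comparison is also given with the replicate number as a block, fitted over all 12 gradients. Promoter sequences are RefSeq's for GRCm38.p6, and 50 of the 59 members had an entry. Alternatives tried were another pseudocount, no filter, other scalings, the mean of probe sets, the deposited fraction, unpaired pools, a replicate block, fits of only the groups compared and leaving out each replicate.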

Additional observations from a re-analysis of the deposited data

Results flagged for a closer look

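Recruitment differed between the Rpl11 shRNA and the control construct, by the test of that difference, for Nop10 (−0.86), Rrp1 (0.90), Fbl (0.92) and Noc4l (0.98), with all 3 values of each group apart from the other's.

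The Gapdh control probe sets, used in no comparison, gave a log2 ratio of 3' over 5' with a median of 1.67 on the 6 Rpl11 arrays and of −0.33 on the other 18, and 5 Rpl11 arrays lay above the highest of the others.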

How the results depend on the processing

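The sign of untransduced recruitment turned for Ebna1bp2 (−0.050) with the mean of all probe sets, for Rrp1 (0.15) with centred arrays and for Npm1 (0.25) with quantile normalization over all arrays. With the mean of all probe sets Riok2 turned to −0.012 between control and untransduced cells, and the level of Nip7 to −0.010 with the Rpl11 shRNA. With unpaired pools 12 members passed in the Rps19 group (22 otherwise) and 8 in the Rpl11 group (23 otherwise), where no filter left 11. Over all genes 2231, 1533 and 2263 passed in these 3 settings. In recruitment, Rpl11 shRNA against control, the 4 members became 1 without the filter, 2 with centring and 0 with only the groups compared. Over all genes 95, 166 and 0 passed there. In level the 9 against control became 4, 20 and 2 under the same settings, where 1342, 3667 and 612 of all genes passed. The 11 against the Rps19 shRNA became 5, 18 and 2, where 1430, 3228 and 934 of all genes passed. Without the filter more genes are tested, and the last setting uses fewer samples. For centring and unpaired pools the cause was not tested.

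Centring also turned the split of higher against lower members to 30 and 3 in untransduced cells, 23 and 4 with the control construct, and 31 and 2 with either shRNA. Over all genes, in either direction, 7164 (untransduced), 6039 (control construct), 6287 (Rps19 shRNA) and 6009 (Rpl11 shRNA) passed with centring. The small-subunit minus large-subunit difference became −0.18 (untransduced) and −0.12 (Rps19 shRNA) with the mean of probe sets, and −0.018 (untransduced) and −0.049 (control construct) with quantile normalization over all arrays. The cause was not tested.

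Leaving out 1 gradient at a time, the members past the threshold ran from 22 to 28 (untransduced), 19 to 21 (control), 16 to 18 (Rps19 shRNA) and 13 to 17 (Rpl11 shRNA), and from 2 to 6, 4 to 17 and 4 to 21 in the Rpl11 comparisons of recruitment and of level with control and of level with the Rps19 shRNA. With the replicate block the counts of these 3 comparisons were 4, 9 and 13, and no other comparison between groups had a member past it. Quantile normalization over all arrays and the differences of Rpl11 replicate 1 alone were chosen after seeing the data. Members whose mean lies near the filter or the array maximum are measured least well.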
